A study of Mus musculus with 18 samples.

Results

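Nuclei of direct-pathway type striatal neurons were chosen from single-nucleus RNA sequencing of the embryonic day 14 (E14) mouse forebrain by the genes detected in them. A nucleus was taken when at least 3 of Ebf1, Ikzf1, Tac1, Rarb, Rxrg, Isl1 and Oprm1 were detected (a count of at least 1), Gad1, Gad2 or Dlx6os1 was detected, and none of Lhx6, Six3, Drd2, Neurod2, Neurod6 and Top2a was. It also had to lie within quality limits of 800 to 6000 UMIs (unique molecular identifiers, each of which marks 1 captured RNA molecule), 300 to 3000 genes and at most 1% mitochondrial UMIs. The rule found 4586 nuclei among 201913 nuclei within the limits and 261143 deposited barcodes. At least 3 of the 7 markers were detected in 6376 nuclei, 6082 of these also had a Gad1, Gad2 or Dlx6os1 count, and 1496 were then set aside for an excluded gene, most often Top2a (741), Six3 (327) or Neurod2 (318).

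The embryos carried the Myt1l allele S710fsX, a frameshift in the gene of a zinc finger transcription factor of postmitotic neurons, in no copy (wild type, WT), on 1 chromosome (heterozygous, Het) or on both (homozygous, KO), with 3 embryos per genotype. Forebrains were dissected and flash frozen, their nuclei were fixed, and RNA was labelled by split-pool barcoding. The titles give each embryo a library of run 1 and one of run 2, 18 in all, without saying what a run was. Groups follow the library titles. The separate genotype tag reads WT for every run 1 library, against 6 of the titles, and in run 2 title and tag match. The embryo was the replicate, and its runs were summed. Where 3 values are given for a genotype, they stand in the order of its embryos 1, 2 and 3. By Xist and the Y-linked genes, WT 3 was the only female, whereas the study describes mixed sexes in each genotype, and this conflict was not resolved. Direct-pathway type nuclei numbered 543, 585 and 437 in WT, 434, 471 and 504 in Het, and 278, 718 and 616 in KO, and no barcode was shared between libraries. They had a median of 3166 UMIs and 1721 genes, and their summed counts ran from 944714 UMIs in KO 1 to 2438852 in KO 2. Across animals the lowest median was 2520 UMIs, in WT 1, and the highest 3467, in Het 2.

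Striatal projection neurons arise in the lateral ganglionic eminence, use GABA, and make up most neurons of the striatum. Those of the direct pathway project to the output nuclei of the basal ganglia and are known in the adult for the dopamine receptor gene Drd1 and the peptide genes Tac1 and Pdyn, whereas those of the indirect pathway carry Drd2, Adora2a and Penk. Isl1, Ebf1, Ikzf1 and the retinoid receptor genes Rarb and Rxrg are transcription factor genes known from developing direct-pathway or striatal neurons, and Oprm1 encodes the mu opioid receptor.

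Rarb encodes a retinoic acid receptor and is itself a known target of retinoic acid, so the promoter windows of the 7 markers were searched for the DR5 retinoic acid response element, a direct repeat of the receptor's half-site with a spacer of 5 bases. Windows held 250 bases before and 50 after each RefSeq transcript start (GRCm38.p6). The element was found in 1 of the 12 windows of the markers, that of Rarb, and in 32 of all 32851 windows (0.0974%), with both strands searched. It lay at -53 to -37 from the start, in chr14:16575488-16575554 on the minus strand, and capitals mark it:
Rarb: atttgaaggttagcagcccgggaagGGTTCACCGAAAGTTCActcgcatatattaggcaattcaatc

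The letters AAAGTTT, a core bound by zinc fingers of the MYT1 family, were searched on both strands and occurred in 4.74% of the same windows. Among the markers they were found in 1 of 12 windows, that of Ikzf1 (chr11:11685791-11685847, plus strand, at -109 to -103, on the other strand). Capitals mark the match:
Ikzf1: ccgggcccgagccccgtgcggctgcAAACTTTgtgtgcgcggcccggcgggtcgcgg

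The markers that chose the nuclei are described here with no test. Ebf1 was detected in 94.6% of the chosen nuclei (93.2 to 96.1% across animals), Rarb in 92.6%, Isl1 in 74.0%, Oprm1 in 49.8%, Rxrg in 32.5%, Ikzf1 in 26.4% and Tac1 in 12.7%. Ebf1 and Rarb occurred together in 87.6% of nuclei. Of the GABA genes, Gad2, a glutamic acid decarboxylase, was detected in 94.3%, the long non-coding RNA Dlx6os1 in 50.9% and Gad1 in 41.4%. Exactly 3 markers were detected in 2066 nuclei (45.1%), 4 in 1507, 5 in 782, 6 in 208 and all 7 in 23, and the median depth was higher at each step, from 2704.5 UMIs at 3 markers to 4952 at 7. The share with 5 or more markers was lowest in Het 1 (17.5%) and WT 1 (18.4%), the animals with the lowest median depth (2613.5 and 2520 UMIs), and highest in Het 3 (25.8%).

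Genes of striatal and direct-pathway neurons that the rule did not use were compared, without a test, with 4660 nuclei chosen by Six3 or Drd2. These Six3/Drd2 nuclei had a GABA gene, Six3 or Drd2 and fewer than 3 of the markers detected, with no Lhx6, Neurod2, Neurod6 or Top2a (median 2727 UMIs). Six3 was detected in 84.2% of them, Drd2 in 25.6%, Adora2a in 4.91% and Penk in 2.23%, so they are not read as indirect-pathway neurons alone. Levels are CPM, the count scaled to 1e6 of the UMIs summed over the nuclei of a kind in an animal, given as mean ± SD of the 9 animals. They are compared within a gene only. Among transcription factors of projection neurons, Foxp1 reached 2362 ± 160 CPM against 897 in Six3/Drd2 nuclei, Foxp2 2866 ± 193 against 830 and Bcl11b (CTIP2) 1663 ± 204 against 778. Pde10a, the phosphodiesterase of striatal neurons, was at 686 ± 36.1 against 374, and Meis2 at similar levels in both (4027 ± 346 and 4610). The list of 18 projection neuron genes summed to between 13013 and 15100 CPM in the 9 animals, against 7216 to 12219 in Six3/Drd2 nuclei and 2629 to 2930 in Lhx6 nuclei, the interneuron type counterpart.

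Of the 7 further direct-pathway genes, 6 had a higher mean than in Six3/Drd2 nuclei, most of them at low levels. Chrm4 is among the 6, and its mean was too low for that comparison to be read. Zfp521, a zinc finger gene of direct-pathway neurons, was at 571 ± 88.2 CPM against 364. Drd1 was at 13.2 ± 4.3 CPM against 1.32, with 7.93 CPM in the lowest animal and 22.9 in the highest. A Drd1 UMI was present in 4.06% of the chosen nuclei, in 0.386% of Six3/Drd2 nuclei and in 1.08% of excitatory nuclei (2806 UMIs). Excitatory nuclei were all those within the quality limits with Neurod2 or Neurod6 detected and none of Gad1, Gad2, Dlx6os1 and Top2a. The orphan transporter gene Slc35d3 reached 5.83 CPM against 0.158 and Pdyn 3.41 against 1.37, and Chrm4, a muscarinic receptor of adult direct-pathway neurons, was at 0.055 CPM. Eya1 was lower, at 5.68 CPM against 15.03. Of the indirect-pathway genes, the glutamate receptor gene Grik3 was at 37.1 CPM against 772, the phosphatase gene Ptprm at 58.2 against 1180, the transcription factor gene Sp9 at 4.50 against 91.4 and Adora2a at 0.464 against 19.2. The nuclei carried the projection neuron genes and less of these indirect-pathway genes than Six3/Drd2 nuclei, while a UMI of the adult receptor gene Drd1 was absent from most of them. Six3 and Drd2 were barred from the chosen nuclei, and 1 of them was required in the Six3/Drd2 nuclei, where markers were limited. The choice of nuclei therefore partly fixes these contrasts, and they are not read as support for the name of the nuclei.

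**Figure D1:**
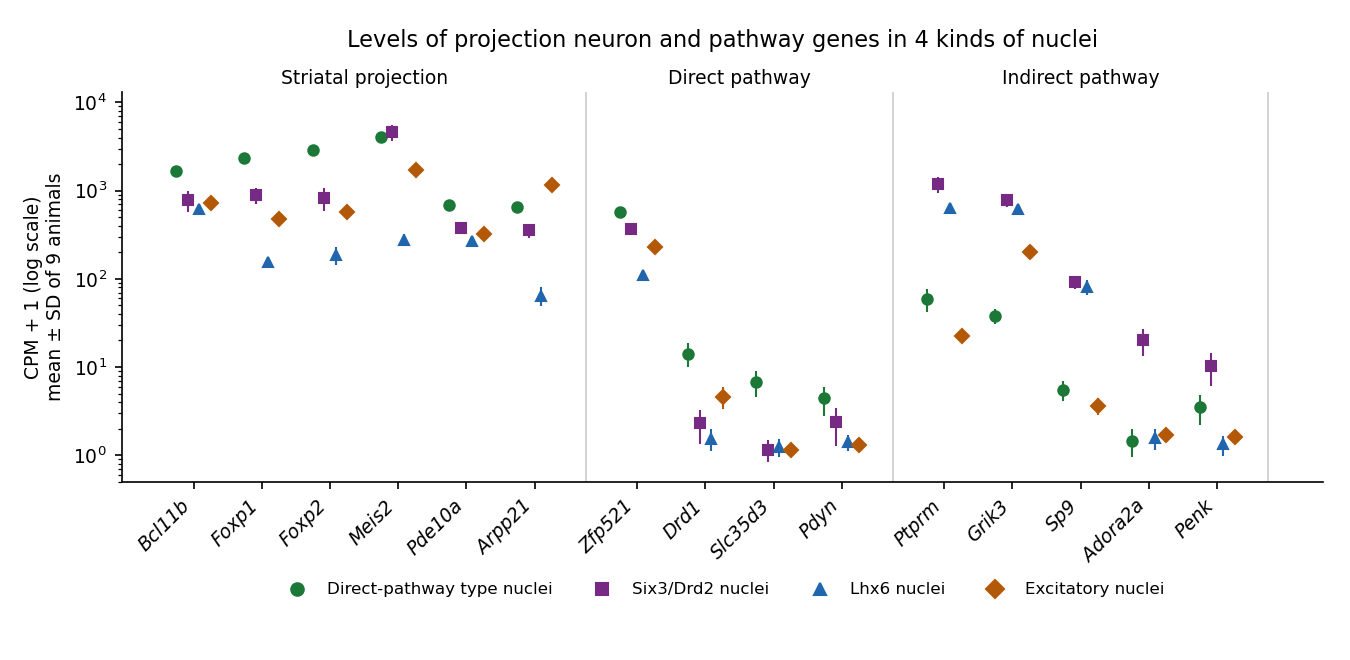
Levels of projection neuron, direct-pathway and indirect-pathway genes outside the marker rule, as CPM + 1 on a log axis, mean ± SD of 9 animals for 4 kinds of nuclei (green circles, direct-pathway type). Foxp1, Foxp2 and Bcl11b sat highest in the direct-pathway type nuclei, Drd1 stayed low at 13.2 CPM, and Ptprm, Grik3 and Sp9 were far below the Six3/Drd2 nuclei (purple squares).

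Markers of most other cell types were at low levels. The summed level of the 8 excitatory markers was 92.7 to 249 CPM, against 5710 to 6524 in excitatory nuclei, and that of the 8 markers of medial ganglionic eminence interneurons 306 to 682 CPM, against 9171 to 10759 in Lhx6 nuclei. Cholinergic markers summed to 0.989 to 7.01 CPM, septal Zic genes to 15.2 to 41.3, diencephalic markers to 14.6 to 43.6, oligodendrocyte progenitor markers to at most 2.12 and vascular markers to 6.92 to 19.0. In Six3/Drd2 nuclei the septal Zic genes summed to 232 to 529 CPM. Radial glia markers summed to 256 to 373 CPM, against 756 to 921 in excitatory, 340 to 473 in Six3/Drd2 and 243 to 328 in Lhx6 nuclei. The 16 subpallial progenitor genes summed to 833 to 1231 CPM, against 1077 to 1816 in Six3/Drd2 nuclei. One of them, Mki67, was detected in 7.02% of the chosen nuclei and 9.03% of Six3/Drd2 nuclei. Cajal-Retzius markers summed to 275 to 490 CPM, most of it from Reln (358 CPM), against 209.7 to 392 in excitatory nuclei. Microglial markers summed to 14.4 to 32.8 CPM, with P2ry12 the highest of them at 14.4 CPM. P2ry12 lies inside Med12l on the opposite strand (chr3:59216272-59262871 within chr3:59005825-59318682, GRCm38), Med12l was at 1056 CPM in these nuclei, and reads of the pair cannot be told apart without the strand used in counting. The 4 genes of intercalated amygdala neurons, which include Foxp2 and Meis2, were not low. They summed to 7994 to 9581 CPM, against 5191 to 9185 in Six3/Drd2 nuclei and 818 to 1192 in Lhx6 nuclei. Of these genes Tshz1 was at 33.7 CPM against 172 in Six3/Drd2 nuclei. The 7 markers of caudal ganglionic eminence interneurons summed to 1305 to 1886 CPM, nearly all of it from Adarb2 (1625 ± 175 CPM), an RNA editing enzyme family gene that was at 3900 CPM in Lhx6 nuclei and 1206 in Six3/Drd2 nuclei.

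Genes beyond the rule were ranked by how far they set the nuclei apart. Against Six3/Drd2 nuclei the 15 genes of largest ratio, at a mean of at least 50 CPM and with 1 CPM added to both sides, were Cntnap3, Gm14133, Frmd6, Gpr149, Ano3, Col25a1, Cdh9, Stra6l, Med12l, Sybu, Cntn5, Dlc1, Mgat4c, Dock5 and Chst15. Cntnap3, a contactin-associated adhesion gene, was at 217 ± 27.2 CPM against 8.43, a ratio of 23.1 (12.7 to 88.2 within single animals). The orphan receptor gene Gpr149 was at 98.4 ± 12.4 against 5.50 CPM and the transmembrane collagen gene Col25a1 at 555 ± 80.1 against 48.8. Cntn5, a contactin of axons, reached 7444 ± 205 CPM against 823, and Sybu, whose product syntabulin links cargo to kinesin motors, 855 ± 61.1 against 85.6. Stra6l, a retinol transporter gene, was at 74.9 ± 13.4 CPM against 6.33. Against all other nuclei with a GABA gene the corresponding list shared 11 of 15 genes and added Kcnh1, Trpc7, Slc35f3 and A930017M01Rik. The last of these overlaps Sybu on the opposite strand.

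Several genes outside the rule followed the number of markers detected in a nucleus. Values just outside and just inside the rule's limit were compared in nuclei with a GABA gene and no excluded gene. Cntn5 went from 634 CPM at 0 markers and 2362 at 2 to 6075 at 3 and 8747 at 5 or more, Robo2, a receptor for Slit guidance cues, from 2030 and 4289 to 7513 and 8740, and Foxp1 from 258 and 871 to 1936 and 2811. Col25a1 went from 40.6 and 218 to 387 and 879 CPM, Plxnd1, a semaphorin receptor gene of direct-pathway axons, from 4.1 and 4.9 to 16.8 and 74.4, and Gnal, the G protein subunit that couples striatal dopamine receptors, from 28.8 and 56.9 to 95.8 and 269.5. Others were lower inside the limit than outside it. The netrin receptor genes Dcc (5409 and 7020 to 4185 and 2538 CPM) and Unc5d (831 and 708 to 363 and 61.1), the semaphorin co-receptor gene Nrp2 (206 and 195 to 96.6 and 12.6) and the progenitor and interneuron gene Dlx1 (244 and 65.4 to 32.1 and 14.6) were lowest at 5 or more markers. Means per number of markers cannot tell a graded series of nuclei from a mixture of kinds, so neither is read from them. Within the rule depth also increased with the number of markers, and the part of depth was not tested.

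**Figure D2:**
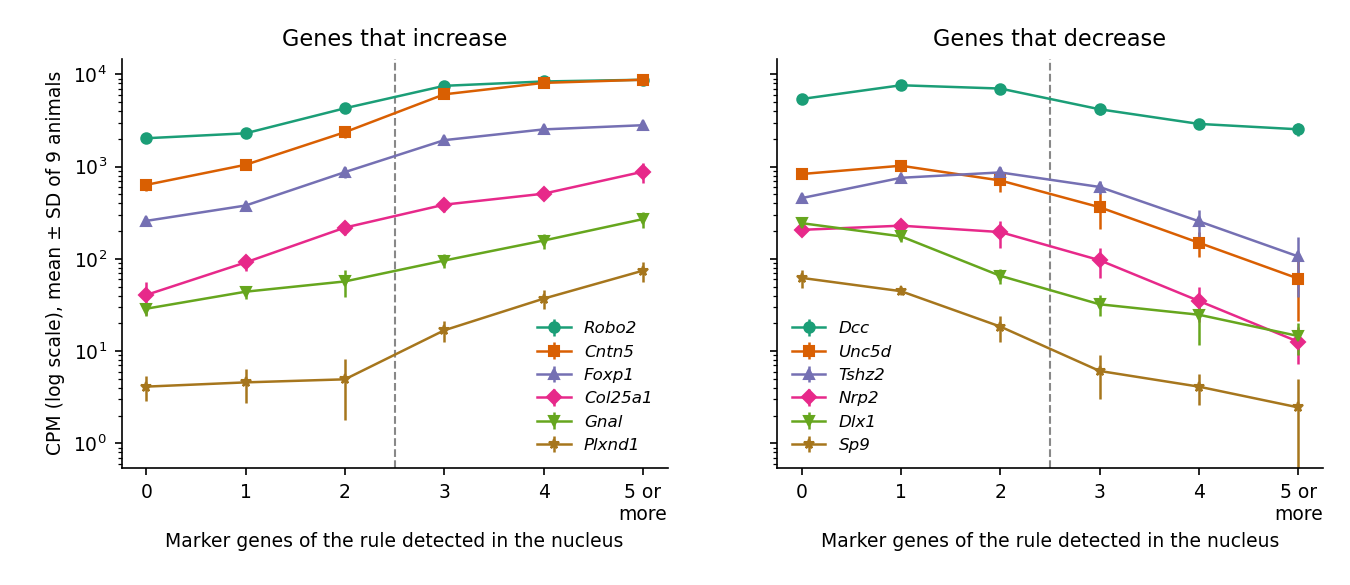
CPM on a log axis (mean ± SD of 9 animals) of 12 genes outside the rule in nuclei with a GABA gene and no excluded gene, by the number of the 7 marker genes detected. The dashed line is the limit of 3 markers. Cntn5 and Robo2 climbed across it and Dcc, Unc5d and Nrp2 declined.

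To ask whether genotype altered how many of these nuclei the forebrain held, their share among all nuclei within the quality limits was compared between animals. It was 2.30, 2.20 and 2.11% in WT, 1.75, 2.49 and 2.52% in Het, and 1.82, 2.86 and 2.28% in KO. Het and KO animals lay on both sides of the WT animals, and the spread was wider in both than in WT. WT animals had a mean of 2.21 ± 0.0954%, Het animals 2.25 ± 0.438% and KO animals 2.32 ± 0.524% (SD, n = 3). The difference from WT was 0.111 percentage points in KO (exact permutation p = 0.8, two-sided) and 0.0471 in Het (exact permutation p = 1), where 0.1 is the smallest p that 3 animals against 3 allow. With the replicate numbers taken as pairs, the exact p for KO was 0.75, and 3 pairs cannot give less than 0.25. As an alternative, nuclei with fewer than 1500 UMIs were left out, the others were thinned to 1500 UMIs, and the rule was applied again. The shares of these nuclei were 1.85 ± 0.190, 1.83 ± 0.266 and 1.99 ± 0.458% in WT, Het and KO. The Het difference thereby changed sign (-0.0211 points), and the loss of shallow nuclei was not told apart from the thinning. The sign of the KO difference rested on KO 2, without which it was -0.160 points, and on run 2, since run 1 alone gave -0.239.

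**Figure D3:**
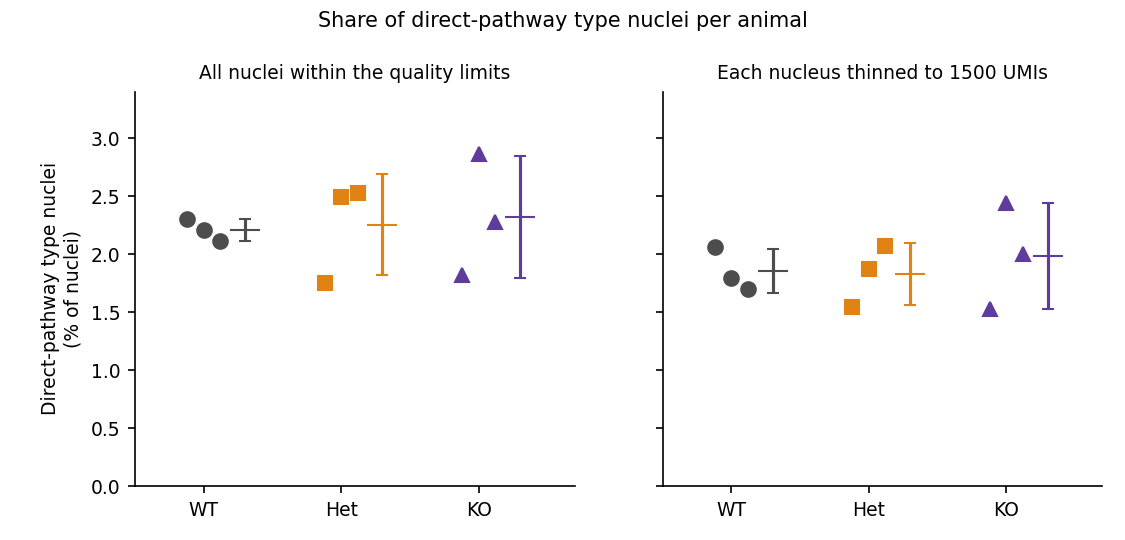
Share of direct-pathway type nuclei per animal, 1 point per animal with the mean ± SD beside each genotype (n = 3). Left, percent of all nuclei within the limits, as counted. Right, percent of those with at least 1500 UMIs, each thinned to 1500 UMIs. The KO animals spanned 1.82 to 2.86% and enclosed the 3 WT animals.

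Gene expression was next compared between genotypes within the direct-pathway type nuclei, with edgeR on the counts summed per animal and a call at an adjusted p under 0.05 and a log2 change beyond 0.2. Myt1l itself (chr12:29528384-29923213, plus strand, GRCm38) was at 1287, 1399 and 1325 CPM in WT, 1395, 1558 and 1450 in Het, and 1816, 1585 and 1415 in KO. Each KO animal exceeded the highest WT animal. The log2 change in KO was 0.29 (SE 0.097, edgeR adjusted p = 0.665, and 0.183 in the blocked fit, which adds the replicate number) and in Het 0.15 (SE 0.097, edgeR adjusted p = 0.999). The counts are per gene and do not separate the mutant allele from the WT allele, so this level was not used to check the genotype. Why it was not lower in KO was not tested. The related Myt1 was at 88.0 to 104 CPM in WT and 95.3 to 109 in KO, and St18 at 6.65 to 11.8 and 11.1 to 14.3, neither called.

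Between KO and WT no gene was called in 10941 tested (0%) by edgeR with genotype alone in the model, which ignores the replicate number. An unadjusted p under 0.05 was reached by 643 genes (5.88%), 357 of them higher and 286 lower, and the lowest adjusted p was 0.107. Same-numbered animals of different genotypes deviated together, and in the blocked fit edgeR called 29 genes (0.265%), 18 higher and 11 lower. DESeq2 without the block called 4 (0.0366%): Man1a, Gm20754, Cdh8 and Phf21a, all of them also called with the block. The other genes called with the block alone included the AMPA receptor gene Gria3 and the serotonin receptor gene Htr2c on the X chromosome (log2 change 0.51 and -1.09), the cadherin gene Cdh9 (-0.61), the auxiliary AMPA receptor gene Shisa9 (0.83), the Wnt antagonist gene Dkk2 (0.72) and Tshz1 (0.90). KO has no female and WT has 1 of 3, so sex and genotype are partly confounded for genes of X. For comparison, in 45291 excitatory nuclei, whose sums held 11254103 to 19543763 UMIs per animal, edgeR called 100 of 18545 genes, and in Six3/Drd2 nuclei, with 921197 to 1889939 UMIs per animal, 0 of 10878, with 524 at p under 0.05 before adjustment.

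The genes of lowest p in each direction are given with their values in each animal. Among those with more RNA in KO, Gm20754, a long intergenic RNA (chr3:73066316-73594830), was at 2152, 2194 and 2209 CPM in WT, 2308, 2465 and 2421 in Het, and 3093, 3102 and 2651 in KO. The log2 change in KO was 0.46 (SE 0.084, edgeR adjusted p = 0.107, 0.00270 with the block and 0.0213 by DESeq2). Phf21a, a subunit of a histone demethylase complex (chr2:92093117-92364666), was at 429, 465 and 417 CPM in WT, 470, 534 and 449 in Het, and 673, 668 and 550 in KO. Its log2 change was 0.55 (SE 0.10, edgeR adjusted p = 0.107, 0.00123 with the block and 0.0225 by DESeq2). For both genes the 3 KO animals lay above the other 6.

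Maml2, a coactivator of Notch signalling (chr9:13297957-13709388), was at 93.2, 123 and 102 CPM in WT, 126, 127 and 137 in Het, and 156, 150 and 172 in KO (log2 change 0.60, SE 0.11, edgeR adjusted p = 0.113, 0.00667 with the block). Nr6a1os (chr2:38823257-38852370), whose gene lies within Nr6a1 on the opposite strand so that their reads may be mixed, was at 60.5, 56.4 and 59.6 CPM in WT, 80.9, 65.5 and 71.8 in Het, and 113, 82.0 and 89.8 in KO (0.68, SE 0.13, edgeR adjusted p = 0.116, 0.00519 with the block). In both, Het and KO animals lay above all WT animals. Wls, which carries Wnt proteins to the cell surface (chr3:159839672-159938664), was at 17.3, 17.8 and 15.2 CPM in WT, 18.2, 19.9 and 19.0 in Het, and 27.5, 34.9 and 29.1 in KO (0.90, SE 0.19, edgeR adjusted p = 0.192, 0.0271 with the block). Its KO animals stood apart from the other 6.

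Among those with less RNA in KO, Man1a, a Golgi mannosidase that trims N-glycans (chr10:53904785-54076609), was at 139, 127 and 111 CPM in WT, 114, 105 and 111 in Het, and 67.7, 89.0 and 65.6 in KO. The log2 change was -0.72 (SE 0.13, edgeR adjusted p = 0.107, 0.00270 with the block and 0.0455 by DESeq2). Cdh8, a type II cadherin of synapses and axons (chr8:99024471-99416471), was at 1114, 1170 and 1190 CPM in WT, 879, 753 and 1021 in Het, and 843, 774 and 665 in KO. Its log2 change was -0.58 in KO (SE 0.11, edgeR adjusted p = 0.107, 0.00270 with the block and 0.0213 by DESeq2), and every Het and KO animal lay below the WT animals.

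Ryr2, a calcium release channel of the endoplasmic reticulum (chr13:11553102-12106945), was at 187, 178 and 181 CPM in WT, 160, 150 and 155 in Het, and 124, 139 and 129 in KO (log2 change -0.44, SE 0.095, edgeR adjusted p = 0.222, 0.0246 with the block). The 3 genotypes did not overlap. Rasgef1a, an exchange factor of Ras family proteins (chr6:118011438-118091546), was at 37.9, 29.2 and 26.3 CPM in WT, 17.5, 16.9 and 25.3 in Het, and 13.8, 13.9 and 19.2 in KO (-0.94, SE 0.22, edgeR adjusted p = 0.306, 0.0437 with the block). B230303A05Rik, a transcribed pseudogene that overlaps Inhba on the opposite strand (chr13:15813548-16023423), was at 35.9, 32.6 and 32.5 CPM in WT, 22.2, 18.1 and 36.8 in Het, and 14.8, 14.8 and 19.2 in KO (-1.01, SE 0.23, edgeR adjusted p = 0.306, 0.0236 with the block). In all 10 genes the KO animals did not overlap those of WT, as did 4.32% of all tested genes upward and 6.12% downward, and since the genes were picked by p nothing is read from that. In run 1 alone the log2 change was smaller by more than 1.5 times for Phf21a (0.29), Maml2 (0.37), Nr6a1os (0.38), Ryr2 (-0.27) and B230303A05Rik (-0.22). While these values differed, the summed markers of medial ganglionic eminence interneurons were 372 to 468 CPM in WT and 383 to 682 in KO. Of single markers of other cells, Mef2c (log2 change 0.30) and Prox1 (0.98) of interneurons and Pax6 of radial glia (-1.41, 6.93 to 11.3 CPM in WT and 2.12 to 3.95 in KO) had an unadjusted p under 0.05, with edgeR adjusted p values of 0.451 to 0.849. The change of Prox1 turned to -0.17 when at least 2 markers chose the nuclei. The part of these markers in the differences was not tested.

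**Figure D4:**
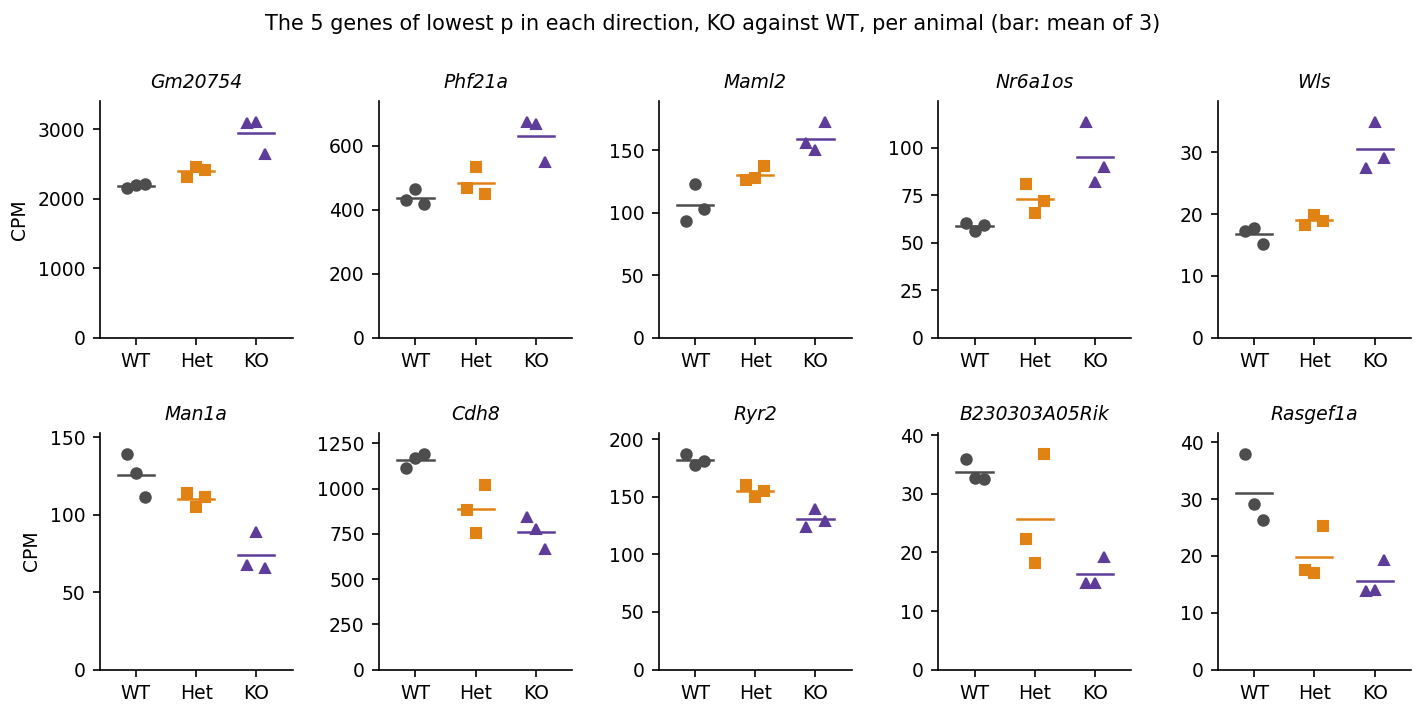
CPM in each of the 9 animals for the 5 genes of lowest p in either direction between KO (triangles) and WT (circles), with Het as squares and bars at the mean of 3 animals; the axes start at 0. Phf21a and Gm20754 were highest in KO, Man1a, Cdh8 and Ryr2 lowest, and the Het means lay between those of WT and KO.

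Of these 10 genes 9 had RefSeq windows, 19 in all, and AAAGTTT occurred in 1 of them, at a Phf21a start (chr2:92221292-92221348, plus strand, at -155 to -149), against 4.74% of all windows. Capitals mark the match:
Phf21a: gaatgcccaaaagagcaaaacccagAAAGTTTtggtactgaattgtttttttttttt

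In Het no gene was called of 10941 by edgeR (0%), and DESeq2 called 0. An unadjusted p under 0.05 was reached by 340 genes (3.11%), 1.51% of those tested on the higher side and 1.6% on the lower. With the block 1 gene (0.00914%) was called. That gene was Cdh9, a type II cadherin and one of the leading genes of these nuclei (chr15:16728756-16857094). It was at 153, 110 and 184 CPM in WT, 89.6, 80.6 and 78.1 in Het, and 94.2, 74.2 and 118 in KO. All Het animals lay below the WT animals, as in 4.9% of tested genes (3.53% lay above), and the KO and WT ranges overlapped. The log2 change in Het was -0.82 (SE 0.17, edgeR adjusted p = 0.999, 0.00173 with the block), and in KO it was -0.61 with an adjusted p of 0.0151 in the edgeR fit with the block. Run 1 alone gave -0.43 in Het. Both contrasts use the same WT animals. The other genes of lowest p in Het were Atg7 (log2 change 0.72), Ldlrad4 (0.48), Tshz2 (0.39), Chrm2 (0.54) and Coq8b (0.68) on the higher side and Pisd-ps1 (-0.98), Gm42418 (-0.46), Cdh8 (-0.37) and Cbarp (-0.53) on the lower, each at an edgeR adjusted p of 0.999. Gm42418 overlaps other annotated genes, and Pisd-ps1 is a pseudogene that can share reads with its parent gene.

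The level of each marker of the rule was compared between genotypes in nuclei chosen by at least 3 of the other 6 markers, so that the gene did not choose its own nuclei. Rarb was at 1948, 2152 and 2004 CPM in WT, 2140, 2228 and 2247 in Het, and 2492, 2265 and 2300 in KO (2831 nuclei). Each KO animal exceeded the highest WT animal, with a log2 difference of 0.21 (exact permutation p = 0.1, the smallest possible, and 0.764 adjusted over the 14 tests). The difference rested on run 2 (0.25), since run 1 alone gave 0.020. Its heterodimer partner gene Rxrg differed by 0.21 in KO (exact p = 0.2) and overlapped, with 0.099 when WT 1 was left out. For Rxrg run 1 alone gave 0.69 and run 2 alone 0.11. The remaining differences in KO were 0.085 for Ebf1, 0.049 for Isl1, -0.15 for Oprm1, -0.18 for Ikzf1 and -0.38 for Tac1, with an exact p of 0.5 or 0.8. These 5 moved by more than 1.5 times as single animals were left out, Tac1 from -0.77 without KO 3 to -0.14 without KO 2. In Het they ranged from -0.19 for Tac1 to 0.12 for Rarb (exact p = 0.2 to 0.8), and all but that of Rarb moved by more than 1.5 times as single animals were left out, Tac1 from -0.45 without Het 3 to -0.018 without Het 1. Compared within same-numbered pairs, Ebf1, Rarb and Rxrg were higher and Ikzf1 lower in KO in 3 of 3 pairs, as were Rarb and Isl1 (higher) and Ikzf1 (lower) in Het, and the exact p of 0.25 for each is the smallest that 3 pairs can give. No marker level passed in either contrast.

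Lists of genes that striatal neurons use were then read against the background of 3.26% of tested genes at an unadjusted p under 0.05 upward in KO and 2.61% downward. The edgeR fit without the block called no member of any list in either contrast. With the block, Tshz1 and Gria3 were called in KO. Of the 17 projection neuron genes tested, 0 had a p under 0.05, and the median log2 change in KO was -0.037 beside -0.0015 over all genes. Foxp1 was at 2054 to 2439 CPM in WT and 2296 to 2564 in KO, and Foxp2 at 2610 to 3095 and 2646 to 3092, ranges that overlap. Of 5 direct-pathway genes tested, Slc35d3 alone had a p under 0.05, lower in KO, with 7.98, 7.91 and 8.31 CPM in WT and 5.29, 4.92 and 1.97 in KO (log2 change -1.02, SE 0.40, edgeR adjusted p = 0.747). Drd1 was at 13.3, 10.4 and 22.9 CPM in WT and 11.6, 11.5 and 13.8 in KO (-0.26, edgeR adjusted p = 0.975, and 0.098 without WT 3). Of 8 genes of dopamine signalling 7 had a log2 change below 0 in KO, with a median of -0.16 beside -0.0015 over all genes. None had a p under 0.05.

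Of 27 axon guidance genes tested, 4 had a p under 0.05 upward and 0 downward, with a median log2 change of 0.038 in KO. They were Plxnd1 (0.45, 32.1 to 38.6 CPM in WT and 40.2 to 55.2 in KO), the co-receptor genes Nrp1 (0.42) and Nrp2 (0.43), and the ephrin gene Efna5 (0.22), with edgeR adjusted p values of 0.734 to 0.849. The receptor genes Robo1, Robo2 and Dcc had log2 differences of at most 0.091 in KO. Of the 4 genes that mark intercalated neurons, Pbx3 and Tshz1 had a p under 0.05. Tshz1 was at 30.6, 21.3 and 19.4 CPM in WT, 27.0, 32.7 and 31.0 in Het, and 68.8, 34.9 and 37.5 in KO (0.90, SE 0.24, edgeR adjusted p = 0.451, 0.0255 with the block), and the highest value was that of KO 1, the animal with the fewest nuclei. Of matrix and striosome genes, which mark the compartments of the striatum, Rasgrp2 alone had a p under 0.05 (-0.95, 7.42 to 12.6 CPM in WT and 3.18 to 5.92 in KO, edgeR adjusted p = 0.734).

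Whether the KO effect differed from that in other neurons was tested as an interaction, with the animal as a block. Against Six3/Drd2 nuclei 0 of 11774 genes were called by edgeR (0%), and 479 had p under 0.05 before adjustment. DESeq2 was not run for this difference. On simulated counts this interaction recovered 60% of 2-fold and 12% of 1.5-fold changes, against 86 and 41% with excitatory nuclei. The count of 0 therefore does not show that the KO effects were alike. Excitatory nuclei were pooled over subtypes, whose proportions the study reports as altered in mutants at E14. The part of such a shift in the KO effect of this pool was not tested. Against excitatory nuclei 23 of 16647 genes were called (0.138%). In 17 of them the KO effect was more positive in the direct-pathway type nuclei, and all 17 had a negative effect in excitatory nuclei. In the other 6 the effect was more negative, and all 6 had a positive effect in excitatory nuclei. The genes were picked by the difference between the 2 effects, which partly fixes these signs and whether genotypes overlap in either kind, so nothing is read from them. Called alone, 7 of the 23 passed in excitatory nuclei and 0 in direct-pathway type nuclei, where 6 were called with the replicate block (Cdh8, Asic2, Shisa9, Kcnt2, Cntnap5a and B230303A05Rik) and 1, Cdh8, by DESeq2.

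Sybu, also a leading gene of these nuclei, was at 903, 769 and 874 CPM in WT, 881, 800 and 830 in Het, and 786, 904 and 946 in KO, while in excitatory nuclei it was at 279.7, 299.8 and 265 in WT, 233, 198 and 210 in Het, and 169, 196 and 196 in KO. The genotypes overlapped in the former and separated in the latter. The log2 effect of KO was 0.080 (SE 0.085) against -0.57 (SE 0.079), a difference of 0.66 (SE 0.089, edgeR adjusted p = 0.000499). Shisa9 was at 45.2, 31.1 and 45.7 CPM in WT and 67.7, 76.7 and 64.1 in KO, and in excitatory nuclei at 62.3, 57.1 and 58.2 in WT and 43.9, 41.8 and 37.0 in KO. Its KO animals lay above WT in one kind of nuclei and below WT in the other, a difference of 1.38 (SE 0.19, edgeR adjusted p = 0.000499).

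Galnt18, a glycosyltransferase gene of mucin type O-glycans, was at 149.7, 209 and 168 CPM in WT and 150.3, 95.5 and 123 in KO, and at 59.0, 61.1 and 69.2 against 79.6, 75.6 and 82.1 in excitatory nuclei (difference -0.89, SE 0.13, edgeR adjusted p = 0.000709). The proton-gated channel gene Asic2 was at 391, 315 and 324 CPM in WT and 279, 224 and 255 in KO, and at 95.7, 96.9 and 107 against 127, 115 and 125 in excitatory nuclei (-0.73, SE 0.11, edgeR adjusted p = 0.00134). In excitatory nuclei the WT and KO animals were separate for both genes. In the direct-pathway type nuclei WT and KO were separate for Asic2 and overlapped for Galnt18. Het animals overlapped WT for both genes in both kinds of nuclei. The intergenic RNA A330008L17Rik starts next to Cdh8 on the opposite strand (chr8:99416642-99733438). It was at 39.9, 38.1 and 48.5 CPM in WT and 29.6, 26.2 and 22.7 in KO, and at 47.0, 49.9 and 56.4 against 64.7, 74.7 and 58.3 in excitatory nuclei, a difference of -1.08 (SE 0.15, edgeR adjusted p = 0.000499). Cdh8 itself was also among the 23, with a difference of -0.80 (SE 0.13, edgeR adjusted p = 0.00250). The count of 23 fell to 8 without WT 3, the only female, and was 41 without KO 3 and 38 without Het 2, and it was 16 in run 2 alone, with 15 of the 23 among them, and 1 in run 1 alone, which gave 14.4 to 27.8% of the nuclei per animal. In run 1 alone none of the 5 genes passed (edgeR adjusted p = 0.405 to 1), with the same sign in each and differences of 0.19 for Sybu, -0.88 for A330008L17Rik, 0.97 for Shisa9, -1.20 for Galnt18 and -0.19 for Asic2.

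**Figure D5:**
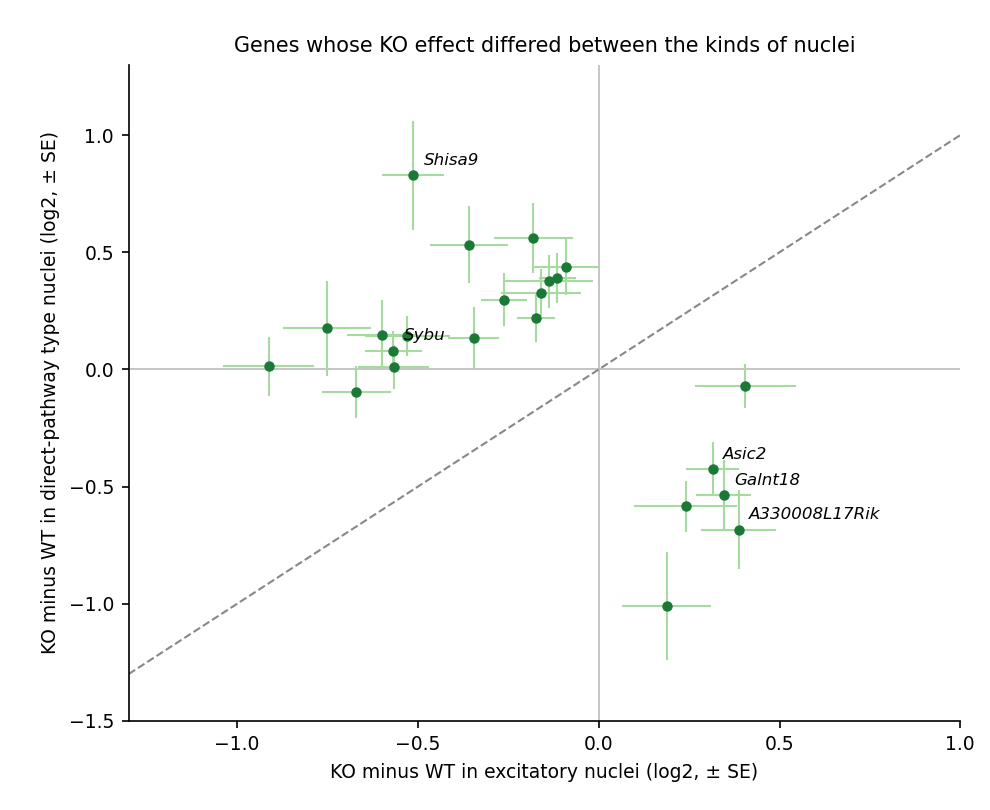
Log2 effect of KO against WT in direct-pathway type nuclei (vertical) and in excitatory nuclei (horizontal), each ± SE, for the 23 genes whose effect differed; the dashed line marks equal effects. The points lie in 2 groups off that line, and the labelled genes include Shisa9 at 0.83 against -0.51 and Sybu at 0.080 against -0.57.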

How the data were processed

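The deposited matrices hold estimated counts, UMIs per gene and nucleus for 55335 genes in 18 libraries, which the authors made with the kit maker's software after mapping reads to mm10. Between 6.70 and 8.71% of the entries per library are not whole. For the annotation release and for strand in counting, nothing is given in the sources used here. The submitters' processing notes name Seurat 4.3.0, Scanpy 1.12.0 and DESeq2 1.38.3. Of the gene identifiers, 54587 matched GENCODE vM21, which gave positions.

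The members, lists and tests were chosen with earlier results of these data known. Counts were summed per animal and kind of nucleus over both runs and then rounded. They were tested with edgeR 4.0.16 (filterByExpr, TMM, quasi-likelihood F-test, two-sided, R 4.3.3) in a model of genotype over 9 animals, with Benjamini-Hochberg adjustment over all genes tested. DESeq2 1.42.0 and a fit with the replicate number as a block were alternatives. Interactions used animal as a block. CPM is a count over the sum of the same nuclei and animal. Fold changes and SE are edgeR's, the SE taken from the F value. Marker levels were compared as log2(CPM + 1). The embryos were separate samples by their labels.

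Named genes were Myt1l, the genes of the rule, called genes of largest change at a mean of at least 20 CPM outside X and Y, or, with fewer than 5 called in a direction, those of lowest p to make 5, the called genes and the 3 of highest mean CPM of each list (all members of lists of up to 7), the 5 called genes of lowest p of an interaction, and the 15 leading genes per comparison. Genes called only with the block, and list genes with a low p, were named after their values were seen. Some genes of the lists are not reported here. Doublets were not removed. Scrublet (scanpy 1.11.5) scores served for an alternative without the highest 5% per library.

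The main fits of KO and Het against WT did not use the numbers in the titles. The blocked fits and paired tests, as alternatives, treated these numbers as pairing animals. The reason was that over all other nuclei every same-numbered pair of animals deviated together from its group means (correlation across genes 0.109 to 0.288, against -0.233 to 0.0259 for other pairs). In the direct-pathway type sums the same pairs gave 0.0605 to 0.192, and all 9 animals correlated best with an animal of their own number. No label says what a number stands for.

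The fits of KO against WT and both interactions were checked on simulated counts with 200 changed genes. These were drawn from genes at a mean of at least 20 CPM, so the shares called do not hold for genes below that level. The simulated counts carried no effect of replicate number or animal, so the rates do not cover the pairing seen in the data. For KO against WT, 93% of 2-fold and 59% of 1.5-fold changes were called among 10704 genes, with the block 92 and 57%, and with DESeq2 85 and 46%. For the interaction with excitatory nuclei these shares were 86 and 41% among 10941 genes, and with Six3/Drd2 nuclei 60 and 12% among 10846. Unchanged genes called were 14 for KO against WT, 12 with the block and 1 with DESeq2, and 10 and 5 for the interactions with excitatory and Six3/Drd2 nuclei. For the marker levels, leaving out each animal and the paired test were added after seeing the data.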

Additional observations from a re-analysis of the deposited data

Results flagged for a closer look

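The results listed here are the 23 genes whose KO effect differed between direct-pathway type and excitatory nuclei by the interaction test of edgeR (adjusted p = 0.000499 to 0.0402). Of these, 8 passed in neither run alone (Cntnap5a, Csmd1, Gm37899, Hs3st5, Nlgn1, Plppr5, Ptprd and Ptprt). The value given is the log2 effect of KO against WT in direct-pathway type nuclei minus that in excitatory nuclei.

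The difference was positive for Sybu (0.66), Shisa9 (1.38), the metabotropic glutamate receptor gene Grm5 (0.91), Xkr4 (0.59), the potassium channel gene Kcnt2 (0.55), Mgat4c (0.68), the adhesion gene Cntnap5a (0.73), the transcription factor gene Mef2c (0.56), Plppr5 (0.92), the heparan sulfate enzyme gene Hs3st5 (0.85), the synaptic adhesion gene Nlgn1 (0.50), the receptor phosphatase genes Ptprd (0.40) and Ptprt (0.50), the adhesion gene Kirrel3 (0.52), Csmd1 (0.54), the nuclear receptor cofactor gene Nrip1 (0.76) and Gm37899 (0.59). Grm5 was at 1165, 1188 and 1085 CPM in WT and 1457, 1039 and 925 in KO in direct-pathway type nuclei, where WT and KO overlapped. In excitatory nuclei it was at 346, 274 and 315 in WT and 163, 138 and 188 in KO, where WT and KO did not overlap. In 16 of the 17 genes the effect in direct-pathway type nuclei was above 0, the exception being Gm37899. These effects are edgeR's after TMM normalization, and that of Grm5 was 0.013 (SE 0.13). Run 1 alone moved the difference by more than 1.5 times for Grm5 (1.49), Cntnap5a (1.15), Csmd1 (0.87), Nrip1 (0.46), Mef2c (0.30) and Sybu (0.19).

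The difference was negative for A330008L17Rik (-1.08), Galnt18 (-0.89), Asic2 (-0.73), Cdh8 (-0.80), B230303A05Rik (-1.15) and the transcription factor gene Dach1 (-0.44), and in all 6 the effect in direct-pathway type nuclei was below 0. For B230303A05Rik it was -0.40 in run 1 alone and -1.36 in run 2 alone, and for Asic2 -0.19 and -0.90. The other differences in run 1 alone were -0.88 for A330008L17Rik, -1.20 for Galnt18, -0.91 for Cdh8 and -0.38 for Dach1. Members and excitatory nuclei of an animal come from the same libraries, and their summed depth differed.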

How the results depend on the processing

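The counts of called genes depended on the fit. For KO against WT the count of 0 became 4 with DESeq2, 29 with the replicate block, 35 with no filter on low counts, 5 with at least 4 markers and 19 without upper limits on UMIs and genes, and 0 to 2 as single animals were left out (1 without KO 2, 2 without KO 3). For Het against WT it became 1 with the replicate block and 7 with no filter on low counts, and stayed 0 whichever animal was left out. The KO effect differed from Six3/Drd2 nuclei in 20 genes with no filter on low counts and in 0 whichever animal was left out. Against excitatory nuclei 23 genes became 1 in run 1 alone and 108 with no filter on low counts, and 8 to 41 as single animals were left out. With another scaling of depth (RLE in place of TMM) 17 were called, and 6 of the 23 no longer passed. For the shares, run 1 alone gave -0.239 percentage points for KO, and for Het thinning gave -0.0211 and at least 2 markers -0.00098. Leaving out single animals moved the KO difference from -0.160 to 0.363 points and the Het difference from -0.0879 to 0.2999, changing sign without KO 2, Het 2 or Het 3. Pairing by replicate number cannot alter a difference of means over 3 full pairs and changes only the p value. The shares' differences were therefore 0.111 and 0.0471 as before, and those of the marker levels were also the same. For the marker levels the paired exact p values were 0.25 to 0.75. Among marker levels in Het, the log2 difference of Ebf1 became -0.0093 in run 2 alone, that of Isl1 -0.015 and of Oprm1 0.028 in run 1 alone. As single animals were left out, Isl1 in Het ranged from -0.0065 to 0.079, Rxrg in Het from -0.046 to 0.13, Ikzf1 in KO from -0.36 to 0.034 and Isl1 in KO from -0.036 to 0.18. The cause was not tested in any of these. None of the 20 genes of lowest p and the 23 genes of the excitatory comparison changed sign under the alternatives run. These genes were picked by p in the same counts, which the alternatives largely reuse, so nothing is read from the kept signs. Sizes did move by more than 1.5 times, among the 23 in run 1 alone as given for the flagged results. They also moved for Atg7 in Het (0.31 in run 1 alone) and for Tshz2 (0.19 with at least 2 markers, 0.88 with at least 4). With at least 2 markers or without upper limits they moved for Ldlrad4 (down to 0.18), Chrm2 (0.31), Coq8b (0.29) and Cbarp (-0.26). Of 346 other single-gene changes, none of them called by edgeR without the block, 208 changed sign under at least 1. The smallest summed depth was that of KO 1, with 944714 UMIs.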

Other observations

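Genes of synaptic transmission were listed as well, and in these sums none was called without the replicate block. For every list of this section the background is 3.26% of tested genes at an unadjusted p under 0.05 upward in KO and 2.61% downward. Of 16 genes of GABA signalling, Gabrb2, a subunit gene of the GABA-A receptor, was at 222, 237 and 247 CPM in WT, 256, 251 and 282 in Het, and 344, 301 and 259.9 in KO (log2 change in KO 0.37, SE 0.11, edgeR adjusted p = 0.458). The 3 KO animals lay above the 3 WT animals. Gabra5 was at 36.0 to 40.0 CPM in WT and 28.6 to 30.6 in KO (-0.36, edgeR adjusted p = 0.849).

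Of 20 glutamate receptor genes tested, 1 had an unadjusted p under 0.05 on the higher side and 3 on the lower (2.61% of all genes were lower), and the list's median log2 change was 0.035. Gria3 was called with the block only. It was at 154, 146 and 168 CPM in WT, 195, 216 and 176 in Het, and 235, 229 and 193 in KO (0.51, SE 0.11, edgeR adjusted p = 0.239, 0.0151 with the block), and it lies on X. Among the genes with a p under 0.05 on the lower side were the NMDA receptor genes Grin3a (-0.48) and Grin1 (-0.42) (edgeR adjusted p = 0.835 and 0.849). Of 22 genes of neuronal maturation, Nlgn1 had a p under 0.05, at 624, 643 and 679 CPM in WT and 991, 775 and 747 in KO (0.39, SE 0.11, edgeR adjusted p = 0.451), and the list's median log2 change was 0.059. Of 11 progenitor genes tested, Mki67 (-0.71) and Nes (-0.54) were lower at p under 0.05 (edgeR adjusted p = 0.849 for both), with a median of -0.054 for the list.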
